A study of Mus musculus with 31 samples.

Results

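Heat shock proteins and chaperonins are the genes whose products help other proteins fold, refold and assemble. They were taken by name: every gene whose symbol begins Hspa, Hspb, Hspd, Hspe or Hsph with a number, Hsp90, Dnaj or Cct2 to Cct8, together with Tcp1, Hsf1 and Hsf2, on probe sets that carry a single gene symbol. The rule itself uses names and no difference between groups, but it was set with earlier results of these data known. The rule found 56 genes of the 8251 genes with such a probe set, measured by 79 of 12422 tested probe sets, and a gene with several probe sets was followed on the brightest one. Members were then classed by the site assigned to their products. The cytosolic class held 28 members, and proteins of the nucleus were not separated from it. Of the others, 9 belonged to the cytosolic CCT chaperonin, 7 to the endoplasmic reticulum (ER) and 6 to mitochondria. The remaining members were the transcription factor Hsf2 and 5 genes outside these classes. Hsp90ab1 and Hsf1 were not analysed here.

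The arrays were of B6 mouse embryonic stem (ES) cells and of the embryoid bodies (EBs) made from them, all 31 hybridized to Affymetrix MgU74Av2. One undifferentiated group held 6 arrays of feeder-depleted ES cells passaged on gelatin with LIF, the cytokine that keeps mouse ES cells undifferentiated. The other held 6 arrays of ES cells sorted by FACS for an Oct4-GFP reporter, a marker of the undifferentiated state. EBs, free-floating aggregates seeded from ES cells on gelatin after LIF was withdrawn, were sampled at day 4 with 7 arrays and at day 8 and day 14 with 6 arrays each. All cells were grown on mouse embryonic feeders before the study groups were made. An EB holds many cell types at once, so fewer cells of a type and less RNA per cell cannot be told apart in these data.

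A chaperone cycle needs several partners. Hsp70 proteins (the Hspa genes) bind exposed hydrophobic stretches of a client and use ATP to hold and release it, the J-domain proteins (the Dnaj genes) bring clients and trigger the ATP step, and Hsp110 proteins such as Hsph1 exchange the nucleotide. Hsp90 proteins act later on selected clients, small heat shock proteins (the Hspb genes) hold unfolded protein without ATP, and the ring-shaped chaperonins enclose it: CCT in the cytosol for actin and tubulin, Hspd1 with its lid Hspe1 in mitochondria. The cytosolic genes are the classical targets of heat shock factors, the ER genes those of the unfolded protein response, and ES cells are known for a high capacity to keep their proteins folded.

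The regulatory sequences that correspond to these responses were looked for in RefSeq promoters of build GRCm38.p6, windows of 300 bases with 250 before and 50 after each gene's start. Of the 56 members, 48 matched a gene in that table, with 62 windows. A heat shock element was searched as GAA, TTC and GAA or as TTC, GAA and TTC, each block 2 bases from the next, which covers both strands. It stood in 198 of 32851 windows of all genes (0.603%) and in windows of 4 members, Dnajb6, Hspd1, Hspe1 and Hsph1. An ER stress response element was searched as CCAAT and CCACG with 9 bases between them, or its reverse complement, CGTGG and ATTGG at the same distance. It stood in 39 of 32851 windows (0.119%) and in windows of 3 members, Hspa5, Hsp90b1 and Dnajc3, all of the ER class. Hspd1 and Hspe1 lie head to head on chromosome 1 with starts 216 bases apart, so that 1 stretch of DNA carries both promoters. The stretches that hold the matches are given because the levels of these 5 genes are set side by side further on; each runs 5′ to 3′ on the strand named, and capitals mark the matched bases, in which 2 overlapping matches of the heat shock element merge for Hspd1 and Hspe1 and 2 separate matches of the ER element stand for Hsp90b1.
Hspd1 and Hspe1, chr1:55088053-55088082, plus strand: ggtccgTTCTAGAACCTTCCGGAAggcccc
Hspa5, chr2:34771995-34772073, plus strand: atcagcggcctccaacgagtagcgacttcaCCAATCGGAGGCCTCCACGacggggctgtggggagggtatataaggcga
Hsp90b1, chr10:86705503-86705686, minus strand: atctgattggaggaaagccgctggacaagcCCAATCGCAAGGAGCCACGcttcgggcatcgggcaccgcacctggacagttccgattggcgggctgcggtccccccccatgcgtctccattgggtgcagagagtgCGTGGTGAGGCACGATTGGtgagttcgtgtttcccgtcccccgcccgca
Dnajc3, chr14:118937797-118937875, plus strand: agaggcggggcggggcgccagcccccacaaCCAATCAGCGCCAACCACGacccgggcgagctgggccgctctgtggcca
A match is only a match of letters, and no match says only that these letters are not in the window.

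Values are signal intensities on a linear scale, and differences between groups are on the log2 scale, with their standard error (SE) and a p adjusted over all 12422 probe sets; a difference is called at an adjusted p under 0.05. Arrays of a group correlated between 0.947 and 0.997. The gelatin ES group differed from the others in measures that touch its comparisons. Its 3′ to 5′ signal ratio of the Gapdh control, which grows as RNA is shortened, was 5.22 ± 1.55 (SD, n = 6) against 2.92 ± 0.146 in sorted ES cells (n = 6), 3.12 ± 0.75 at day 4 (n = 7), 2.31 ± 0.188 at day 8 and 2.43 ± 0.219 at day 14 (n = 6 each). The summed signal of 9 immediate early genes, which respond within minutes to handling or growth factors, was 19663 to 24308 in gelatin ES cells and 13776 to 14610 in sorted ES cells. That of 8 fibroblast markers, a check for feeders, was 8447 to 15158 in gelatin ES cells and 4193 to 6904 in sorted ES cells, and that of 7 neural markers was 16985 to 19310 in gelatin ES cells and 10520 to 11771 in sorted ES cells. Of these lists, 6 of 9, 4 of 8 and 5 of 7 genes were higher in gelatin ES cells, where 21.4% of all probe sets were. In the same order 1, 0 and 0 were lower (18.2% of all probe sets). The fibroblast markers were split: the other 4, Col3a1, Postn, Lum and Dcn, were not called. Their means were 859, 206, 224 and 391 in gelatin ES cells, below the 929, 260, 343 and 514 of sorted ES cells. No gene of these lists lay at the floor on every array. The part of RNA shortening and of other cells in the gelatin comparisons was not tested, except by leaving out gelatin replicates 3, 4 and 6, whose Gapdh ratios were over 6. The same ratio of the beta-actin control was 4.10 to 6.82 in gelatin ES cells and at most 3.48 on any other array. The gelatin arrays that remain therefore still differ from the other groups in this ratio. The 8 pluripotent markers summed to 25243 to 30311 in gelatin ES cells, below the 38872 to 50709 of sorted ES cells. Of these 8, 5 were lower in gelatin than in sorted ES cells and 0 higher, where 18.2% of all probe sets were lower. In the EBs the pluripotent markers summed to 15725 to 36223 at day 8 and 10065 to 17763 at day 14. The 9 visceral endoderm markers summed to 25170 to 32430 at day 14, against 4319 to 5247 in gelatin and 4411 to 4789 in sorted ES cells. The fibroblast markers summed to 22346 to 37623 at day 14. Against sorted ES cells, 7 of 8 fibroblast and 7 of 9 endoderm markers were higher at day 14 (24.8% of all probe sets). In each list 1 was lower (24.0%), with means of 228 against 813 for Thy1 and 722 against 828 for Gata4. Day 4 replicates 6 and 7 stood apart from the other day 4 arrays at several members.

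Over the 5 groups, 43 of 56 members differed by the F test, where 73.1% of all probe sets did. All 7 ER members, 5 of 6 mitochondrial and 23 of 28 cytosolic members passed, but only 2 of 9 CCT subunits, Cct4 and Cct7. No filter on low signal was applied, and 9 members had a mean in the lowest 40% of probe sets. Most differences were small. The highest and lowest group means were at least 1 log2 unit apart in 8 members, 5 cytosolic and 3 ER. The median span was 0.64 log2 units for ER members, 0.47 for cytosolic, 0.46 for mitochondrial and 0.29 for CCT members.

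Counts of called members lay mostly near the share of all probe sets. In gelatin ES cells 12 members were higher and 11 lower than in sorted ES cells, where 21.4% and 18.2% of all probe sets were. Against sorted ES cells, 9 members were higher and 6 lower at day 4 (11.1% and 13.7% of all probe sets), 6 and 12 at day 8 (15.3% and 19.9%), and 13 and 13 at day 14 (24.8% and 24.0%). Against gelatin ES cells, 4 were higher and 7 lower at day 4 (7.95% and 16.3% of all probe sets), 10 and 23 at day 8 (17.4% and 25.6%), and 12 and 9 at day 14 (21.8% and 23.2%). Between EBs, 3 were higher and 10 lower at day 8 than at day 4 (11.9% and 12.6% of all probe sets), and 15 were higher and 6 lower at day 14 than at day 8 (20.1% and 11.9%). The 23 members lower at day 8 than in gelatin ES cells were 41.1% of the members. Comparisons against the same ES group share its arrays. The split between higher and lower calls moved with the scaling: with each array centred on its median, 11 members were higher and 12 lower at day 14 than at day 8, 9 and 16 at day 14 against sorted ES cells, 12 and 16 at day 8 against gelatin ES cells, and 7 and 5 at day 4 against gelatin ES cells. With quantile normalization the splits were 12 and 12 at day 14 against day 8, 13 and 18 at day 8 against gelatin ES cells, 7 and 5 at day 4 against gelatin ES cells, and 10 and 14 for gelatin against sorted ES cells. Under centring, the difference of day 14 from sorted ES cells had a median of -0.11 over all probe sets.

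**Figure D1:**
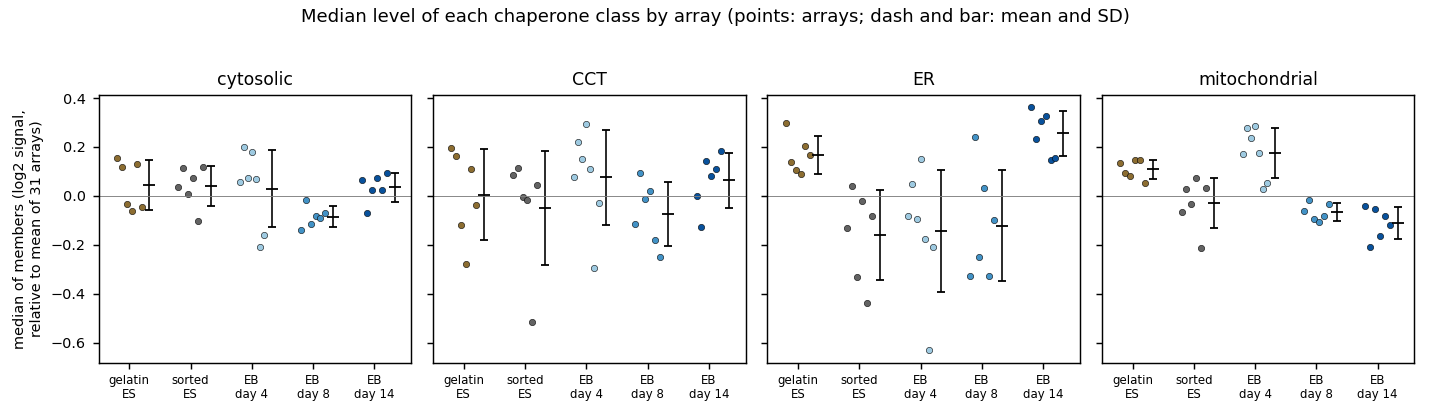
Median of each class's members on each array, as log2 signal relative to the mean of the 31 arrays, in gelatin ES cells, sorted ES cells and EBs at days 4, 8 and 14; dashes and bars are group means and SDs. The ER median lay between 0.15 and 0.36 on all 6 day 14 arrays, while the mitochondrial median lay below 0 on all day 8 and day 14 arrays.

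The ER class had the widest median span. In day 14 EBs 5 of 7 ER members were higher than in sorted ES cells and none lower (24.8% and 24.0% of all probe sets). The median difference was 0.31, where the median over all probe sets was 0. Against day 8, 4 of 7 rose and none fell (20.1% and 11.9% of all probe sets). The median was 0.42 (0.03 over all probe sets). Gelatin ES cells had 4 of 7 members above sorted ES cells and none below (21.4% and 18.2% of all probe sets). The median was 0.27 (0 over all probe sets). Day 8 EBs had 4 of 7 below gelatin ES cells and none above (25.6% and 17.4% of all probe sets). The median was -0.41 (-0.01 over all probe sets). Against gelatin ES cells, 3 of 7 were higher and 1 lower at day 14 (21.8% and 23.2% of all probe sets). The median was 0.08 and ran from 0.034 to 0.18 when single arrays were left out. These medians kept their sign under each scaling tried, but quantile normalization reduced that of gelatin against sorted ES cells to 0.12.

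Hspa5 encodes BiP, the Hsp70 of the ER. Its signal ran from 8322 to 11312 with a median of 10376 at day 14, against 6394 to 7951 with a median of 7345 in gelatin ES cells, 5089 to 8988 with a median of 8388 in sorted ES cells, and 5886 to 9883 with a median of 7143 at day 8. Every day 14 array was above every gelatin array, and replicate 2 alone fell inside the range of sorted ES cells and of day 8. Hspa5 was 0.48 higher than in gelatin ES cells (SE 0.17, adjusted p = 0.0199), 0.44 higher than in sorted ES cells (adjusted p = 0.0313) and 0.47 higher than at day 8 (adjusted p = 0.034). The call against sorted ES cells was lost on leaving out sorted replicate 3 or 5 or day 14 replicate 4 or 6, and that against day 8 on leaving out any of 8 arrays (day 8 replicates 1, 3 and 5, day 14 replicates 1, 3, 4, 5 and 6); both were lost when each array was centred on its median (0.33 and 0.37).

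Hsp90b1, the Hsp90 of the ER (GRP94), which folds integrins and Toll-like receptors, rose at day 14 as well. It had 11284 to 12531 with a median of 12011 at day 14, against 8704 to 11066 with a median of 9703 in gelatin ES cells, 8479 to 10560 with a median of 9818 in sorted ES cells and 7690 to 9374 with a median of 8452 at day 8. The day 14 arrays overlapped none of these groups. The differences were 0.29 against gelatin ES cells (SE 0.09, adjusted p = 0.0119), 0.31 against sorted ES cells (adjusted p = 0.00571) and 0.48 against day 8 (adjusted p = 0.000248), and no single array left out ended a call.

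Dnajc3 (p58IPK), a BiP cochaperone that also restrains the kinase that halts translation under ER stress, had 771 to 1192 with a median of 861 at day 14. Gelatin ES cells had 632 to 775 with a median of 687, and sorted ES cells 550 to 767 with a median of 668. All day 14 arrays were above all sorted arrays. It was 0.47 above sorted ES cells (SE 0.12, adjusted p = 0.00175) and 0.38 above gelatin ES cells (adjusted p = 0.00975). A pair of dimmer probe sets of Dnajc3 rose too, by 1.10 and 1.5 against sorted ES cells (adjusted p = 1.49e-05 and 1.46e-05), while another lay at the floor on every array.

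Hspa5, Hsp90b1 and Dnajc3 were the ER members higher at day 14 than in gelatin ES cells, and they were the 3 of 7 with an ER stress response element in the sequences given above. This coincidence was noticed after the values were seen. Against sorted ES cells Dnajc1 and Dnajc10, which have no such match, were higher as well. Without the 3 gelatin arrays with a Gapdh ratio over 6, the calls against gelatin ES cells were lost, at 0.39 for Hspa5, 0.18 for Hsp90b1 and 0.38 for Dnajc3.

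**Figure D2:**
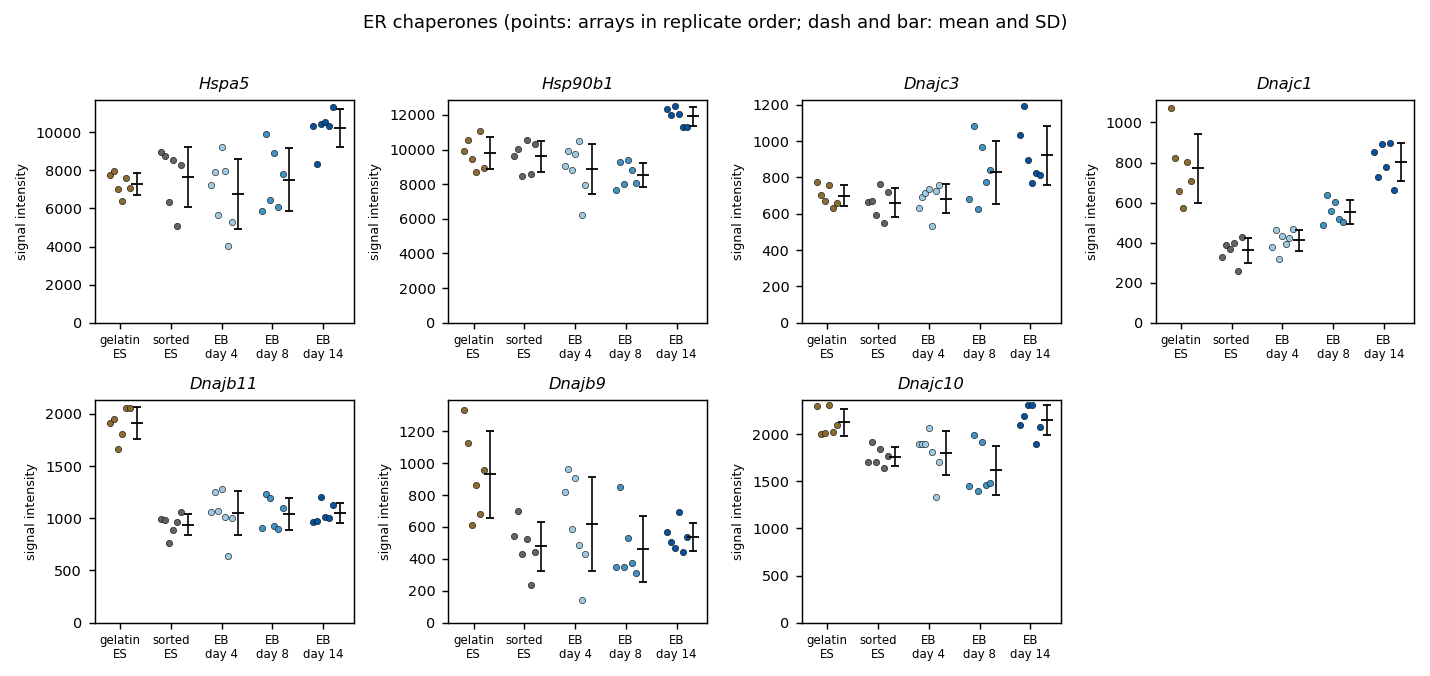
Signal intensity of the 7 ER members on each array, in gelatin ES cells, sorted ES cells and EBs at days 4, 8 and 14; dashes and bars are means and SDs, and each axis starts at 0. Hsp90b1 is at least 11284 on all day 14 arrays and at most 11066 on all others, and Dnajb11 is at least 1666 on all gelatin arrays and at most 1284 on all others.

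Dnajb11 and Dnajc1 had the largest ER differences between the ES groups. Dnajb11 (ERdj3), a soluble J-protein that hands clients to BiP, had 1666 to 2060 with a median of 1935 in gelatin ES cells and 758 to 1056 with a median of 973 in sorted ES cells. EB levels lay near the sorted ones, with medians of 1061, 1011 and 1010 at days 4, 8 and 14. No gelatin array overlapped another group. The gelatin level was 1.03 above the sorted one (SE 0.12, adjusted p = 1.03e-07), and the EBs were below gelatin ES cells at days 4, 8 and 14, with differences of -0.89, -0.88 and -0.87 (highest adjusted p = 1.18e-06). These calls were kept without the gelatin arrays of high Gapdh ratio, though the remaining gelatin arrays also had a beta-actin ratio above every other group.

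Dnajc1 (ERdj1), a membrane-bound J-protein at the ribosome, had 574 to 1070 with a median of 755 in gelatin ES cells and 257 to 427 with a median of 377 in sorted ES cells. In the EBs it went up with time: medians were 422 at day 4, 538 at day 8 and 816 at day 14, and neighbouring times did not overlap. The differences were 1.09 for gelatin against sorted ES cells, 0.43 for day 8 against day 4 (SE 0.12, adjusted p = 0.0108), 0.54 for day 14 against day 8 (SE 0.13, adjusted p = 0.00213) and 1.16 for day 14 against sorted ES cells (adjusted p = 2.15e-08). A dim second probe set, at the 16.1 percentile, did not follow this course, with 0.05 for gelatin against sorted ES cells and -0.16 for day 14 against sorted ES cells (adjusted p = 0.696 and 0.0885).

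Dnajc10 (ERdj5), which reduces disulfide bonds of misfolded protein, averaged 2152 ± 159 at day 14, 1618 ± 263 at day 8 and 1804 ± 235 at day 4, against 1765 ± 101 in sorted ES cells and 2128 ± 144 in gelatin ES cells (SD). It rose by 0.42 at day 14 against day 8 (adjusted p = 0.000741) and was 0.28 above sorted ES cells (adjusted p = 0.00999), the second of which was lost when each array was centred (0.18). Dnajb9 (ERdj4), a brake on the unfolded protein sensor Ire1, was the most variable ER member. It had 612 to 1336 in gelatin ES cells against 235 to 698 in sorted ES cells and 313 to 852 at day 8, and the gelatin and sorted ranges overlapped. The gelatin call (0.98, adjusted p = 0.0233) was lost without gelatin replicate 1 or sorted replicate 5, and the second, very dim probe set did not show it (-0.02).

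A list written for this comparison held 24 other measured genes of ER folding, degradation and stress regulation. Xbp1, Atf6, Ddit3, Herpud1, Sel1l and Edem1 are among those that are not folding genes. Of these, 13 rose and 1 fell at day 14 against sorted ES cells (median 0.40), where 24.8% and 24.0% of all probe sets did. Against gelatin ES cells 10 were higher and 4 lower (median 0.13), where 21.8% and 23.2% of all probe sets were. Pdia4, Pdia6 and Serpinh1 were named because their group means spanned most in the list, so their differences are not typical of it. Pdia4, a protein disulfide isomerase, averaged 5065 ± 646 at day 14 and 3024 ± 384 at day 8, against 1167 ± 72.7 in gelatin ES cells and 1500 ± 178 in sorted ES cells. It was 2.11 above gelatin ES cells at day 14 (adjusted p = 1.76e-10) and 1.75 above sorted ES cells. Pdia6, of the same family, was 2.14 above gelatin ES cells but 0.76 above sorted ES cells (adjusted p = 2.69e-07 and 0.0228). Serpinh1 (HSP47), the chaperone of collagen, averaged 7168 ± 590 at day 14, 3916 ± 558 in gelatin ES cells and 2250 ± 304 in sorted ES cells, and rose by 1.68 against sorted ES cells (adjusted p = 3.41e-08). Hyou1, Manf and Ddit3 of the same list, named after their values were seen, had their lowest group mean at day 14. Dim Hyou1 averaged 166 ± 21.4 at day 14, 230 ± 16.3 in gelatin ES cells and 253 ± 20.9 in sorted ES cells. In the same order Manf averaged 4309 ± 570, 6129 ± 292 and 4593 ± 469, and Ddit3 445 ± 58.6, 661 ± 83.7 and 477 ± 54.2. The fibroblast and visceral endoderm markers given above are of cells that secrete collagen and serum proteins. Their summed signals, though not every gene, were higher in the same day 14 arrays than in either ES group. The part of such cells in these levels was not tested.

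Called differences of mitochondrial members in later EBs were falls. At day 8, 4 of 6 were lower than at day 4 and none higher, with a median of -0.23 (0 over all probe sets). In the same EBs 4 of 6 were lower than in gelatin ES cells (median -0.19). Of all probe sets, 12.6% were lower at day 8 than at day 4 and 25.6% than in gelatin ES cells. At day 14, 3 of 6 were below gelatin ES cells (median -0.26) and 2 of 6 below sorted ES cells, where the median was 0.03. Of all probe sets, 23.2% and 24.0% were lower there, so the count against sorted ES cells (33.3% of members) lay near the share. The day 14 median against gelatin ES cells was -0.064 with dim probe sets left out and -0.13 with a floor at the 25th percentile. That against sorted ES cells was -0.082 with each array centred. None was higher than in gelatin ES cells at any day.

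Hspe1 (Hsp10), the lid of the mitochondrial chaperonin, fell in day 14 EBs. It had 8583 to 10304 with a median of 8975 at day 14, against 13419 to 14350 with a median of 13918 in gelatin ES cells, 13326 to 14170 with a median of 13813 in sorted ES cells and 11611 to 12887 with a median of 12555 at day 8. The day 14 arrays overlapped no other group. The differences were -0.61 against gelatin ES cells (SE 0.05, adjusted p = 3.86e-11), -0.59 against sorted ES cells (adjusted p = 5.77e-11) and -0.44 against day 8 (adjusted p = 1.98e-07). At day 8 it was already lower than in gelatin ES cells (-0.17, adjusted p = 0.00437), a call lost when each array was centred on its median (-0.12).

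Hspd1 (Hsp60), the barrel that this lid closes, did not follow it on its brightest probe set. It had 12753 to 14658 with a median of 13988 at day 14, against 12407 to 15601 with a median of 14064 in gelatin ES cells, 10068 to 13019 with a median of 12406 in sorted ES cells and 11058 to 13380 with a median of 11828 at day 8. The ranges overlapped in all 3 cases. The day 14 differences were -0.01 against gelatin ES cells, 0.19 against sorted ES cells (SE 0.08, adjusted p = 0.0616) and 0.21 against day 8 (adjusted p = 0.0601), and none passed the test. The lowest group mean was at day 8, with -0.29 against day 4 (adjusted p = 0.00974), a call lost when only these groups entered the fit.

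The 2 genes share the promoter printed above. Their distance on each array, Hspe1 minus Hspd1 in log2 signal, was therefore taken as a single value, a choice made after the levels were seen. This distance averaged -0.60 at day 14, against 0.00 in gelatin ES cells, 0.19 in sorted ES cells and 0.04 at day 8, and day 14 overlapped no other group. The changes were -0.60, -0.79 and -0.64, given as a description because the pair was chosen for its separation. A second, dimmer probe set of Hspd1 was itself lower at day 14 than in gelatin ES cells (-0.24, adjusted p = 0.0033), at 511 to 574 against 576 to 676. With it the changes were -0.37, -0.45 and -0.53, again without overlap. Absolute levels of the 2 genes cannot be compared, because probe sets differ in brightness.

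Hspa9 (mortalin), the Hsp70 of the mitochondrial import motor, averaged 10328 ± 970 at day 8 and 13624 ± 1800 at day 4, against 12434 ± 793 in gelatin ES cells and 12020 ± 1258 in sorted ES cells. It was lower at day 8 than at day 4 (-0.39, SE 0.08, adjusted p = 0.00105) and than in gelatin ES cells (-0.27, adjusted p = 0.0139). At day 14 it averaged 11915 ± 1091, which was not called against either ES group or day 8; day 14 was not tested against day 4. Dnajc11, a J-protein of the inner membrane organizing system, was 769 to 947 in gelatin ES cells and 577 to 643 in sorted ES cells, with no overlap. It was 0.53 above sorted ES cells there (adjusted p = 9.32e-09) and lower in the EBs than in gelatin ES cells, with -0.26, -0.52 and -0.46 at days 4, 8 and 14. Dnajc15, a J-protein of the same import motor with a dim probe set at the 26.2 percentile, had 156 to 209 at day 14 against 223 to 282 at day 8, 201 to 290 in gelatin ES cells and 199 to 282 in sorted ES cells, and was below gelatin ES cells (-0.54, adjusted p = 1.88e-05). Day 14 and day 8 did not overlap. Dnaja3, a further J-protein of the matrix, passed no test (F test adjusted p = 0.607).

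Of 10 other mitochondrial protein quality genes, 1 was higher and 3 lower at day 14 than in gelatin ES cells, with a median of -0.17, where 21.8% and 23.2% of all probe sets were. Against sorted ES cells 2 were higher and 4 lower, where 24.8% and 24.0% of all probe sets were. The one higher than in gelatin ES cells was Timm44, a part of the import motor, named after its value was seen. It averaged 1600 ± 158 at day 14 and 1171 ± 181 in gelatin ES cells (0.46, adjusted p = 0.000194). Clpp, Clpb and Grpel1 were named because their group means spanned most in the list, so their differences are not typical of it. Clpp, the matrix protease that removes unfolded protein, averaged 1130 ± 82.5 at day 14 against 3168 ± 238 in gelatin ES cells and 2941 ± 263 in sorted ES cells (-1.49 and -1.38, adjusted p = 3.19e-10 and 1.31e-09). Clpb, a disaggregase, was lower at day 14 than in gelatin ES cells (-0.69, adjusted p = 0.000415) and than in sorted ES cells (-1.13). Grpel1, the nucleotide exchange factor of Hspa9, averaged 774 ± 170 at day 14, 939 ± 161 in gelatin ES cells and 1316 ± 185 in sorted ES cells, a fall against sorted ES cells (-0.79, adjusted p = 0.000952).

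**Figure D3:**
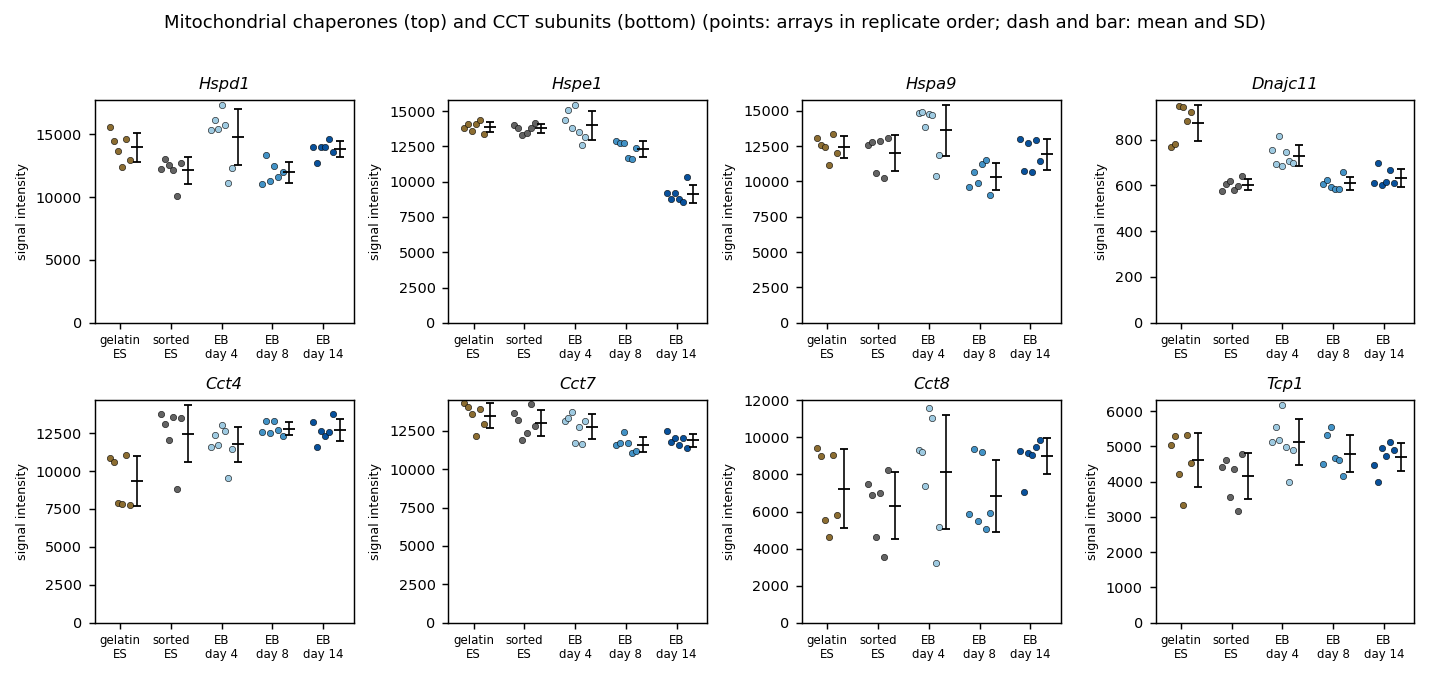
Signal intensity of 4 mitochondrial members (top) and 4 CCT subunits (bottom) on each array, in gelatin ES cells, sorted ES cells and EBs at days 4, 8 and 14; dashes and bars are means and SDs, and each axis starts at 0. Hspe1 lies at or below 10304 on all day 14 arrays and at or above 11611 on all others, while Hspd1 does not separate on the probe set drawn. In the gelatin group Cct4 has 3 arrays at 10615 or above and 3 at 7870 or below.

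Of 28 cytosolic members, 13 were lower and 7 higher at day 8 than in gelatin ES cells, with a median of -0.16 (-0.01 over all probe sets). These were 46.4% and 25% of the class, where 25.6% and 17.4% of all probe sets were called. At day 14, 11 of 28 were higher and 4 lower than at day 8, or 39.3% and 14.3%, where 20.1% and 11.9% of all probe sets were. The day 14 median was 0.13 (0.03 over all probe sets). Centring each array reduced that median to 0.03, and quantile normalization reduced the day 8 median to -0.04.

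Hsph1 (Hsp110), the nucleotide exchange factor of cytosolic Hsp70, had 2718 to 4509 with a median of 3228 at day 8, against 5515 to 6823 with a median of 5946 in gelatin ES cells, 5366 to 8306 with a median of 6461 in sorted ES cells and 3235 to 8180 with a median of 7271 at day 4. Day 8 overlapped neither ES group. It overlapped day 4 only through day 4 replicates 6 and 7, which had 3235 and 4419 where the other 5 had 6344 to 8180. The day 8 differences were -0.83 against gelatin ES cells (SE 0.17, adjusted p = 0.00028), -0.95 against sorted ES cells (adjusted p = 9.11e-05) and -0.85 against day 4 (adjusted p = 0.000393). At day 14 Hsph1 had 4375 to 5392 with a median of 4719, below sorted ES cells (-0.46, adjusted p = 0.0272), a call lost without sorted replicate 2 or 6 or day 14 replicate 6.

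Dnajc7 (TPR2), which links Hsp70 and Hsp90, showed the largest step of any member between neighbouring EB times. It had 1312 to 1984 with a median of 1609 at day 8, against 2455 to 3303 with a median of 2849 in gelatin ES cells and 2544 to 3468 with a median of 3322 in sorted ES cells. At day 14 it had 2601 to 4121 with a median of 3784. Day 8 overlapped none of the 3. The differences were -0.81 for day 8 against gelatin ES cells (SE 0.25, adjusted p = 0.00962), -0.92 against sorted ES cells (adjusted p = 0.00468) and 1.13 for day 14 against day 8 (adjusted p = 0.00097). At day 4, replicates 6 and 7 had 1061 and 1281, below all day 8 arrays, and the other 5 had 2977 to 4889.

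Dnajc2 (MPP11), a J-protein that works on nascent chains at the ribosome, followed the same course. It averaged 2264 ± 290 at day 8 and 3382 ± 277 at day 14, against 3777 ± 601 in gelatin ES cells and 4058 ± 848 in sorted ES cells. Its day 8 difference against gelatin ES cells was -0.73 (adjusted p = 0.00323), and a second probe set gave -0.95 (adjusted p = 0.00184). Hsp90aa1, the stress-inducible cytosolic Hsp90, averaged 14743 ± 819 at day 8 and 18516 ± 1254 at day 14, against 17671 ± 1475 in gelatin ES cells and 18425 ± 1492 in sorted ES cells. Day 8 was below sorted ES cells (-0.32, adjusted p = 0.018) and rose by 0.33 at day 14 against day 8 (adjusted p = 0.0177). The rise at day 14 was lost when each array was centred (0.24), and the day 8 call against gelatin ES cells (-0.26, adjusted p = 0.046) was lost on leaving out any of 14 arrays. Dnajb1 (Hsp40), the main partner of inducible Hsp70, was 871 to 1544 at day 8 and 1107 to 1909 in gelatin ES cells, a difference of -0.55 (adjusted p = 0.0169) between overlapping ranges.

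Hspa1a and Hspa1b, the stress-inducible Hsp70 genes, are near-identical copies whose probe sets may share signal. Hspa1a had 468 to 604 with a median of 536 in gelatin ES cells and 269 to 311 with a median of 298 in sorted ES cells. Hspa1b had 941 to 1195 with a median of 1170 in gelatin ES cells and 590 to 758 with a median of 679 in sorted ES cells. Neither overlapped, and the differences were 0.85 (SE 0.13, adjusted p = 1.19e-05) for Hspa1a and 0.74 (SE 0.16, adjusted p = 0.000645) for Hspa1b. The immediate early genes given above were higher in the same gelatin arrays, and their relation to these levels was not tested.

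In the EBs both genes were lower at day 8 than in gelatin ES cells and above sorted ES cells at day 14. At day 8 Hspa1a had 286 to 420 and Hspa1b 484 to 914, below every gelatin array, with differences of -0.65 (adjusted p = 0.000312) and -0.72 (adjusted p = 0.000822). At day 14 Hspa1a had 367 to 589 and Hspa1b 945 to 1425, above every sorted array, with 0.61 (adjusted p = 0.000491) and 0.70 (adjusted p = 0.000868). At day 4 the arrays spread widely, with 283 to 593 for Hspa1a and 608 to 1287 for Hspa1b, and replicates 6 and 7 were the lowest 2 for both genes.

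**Figure D4:**
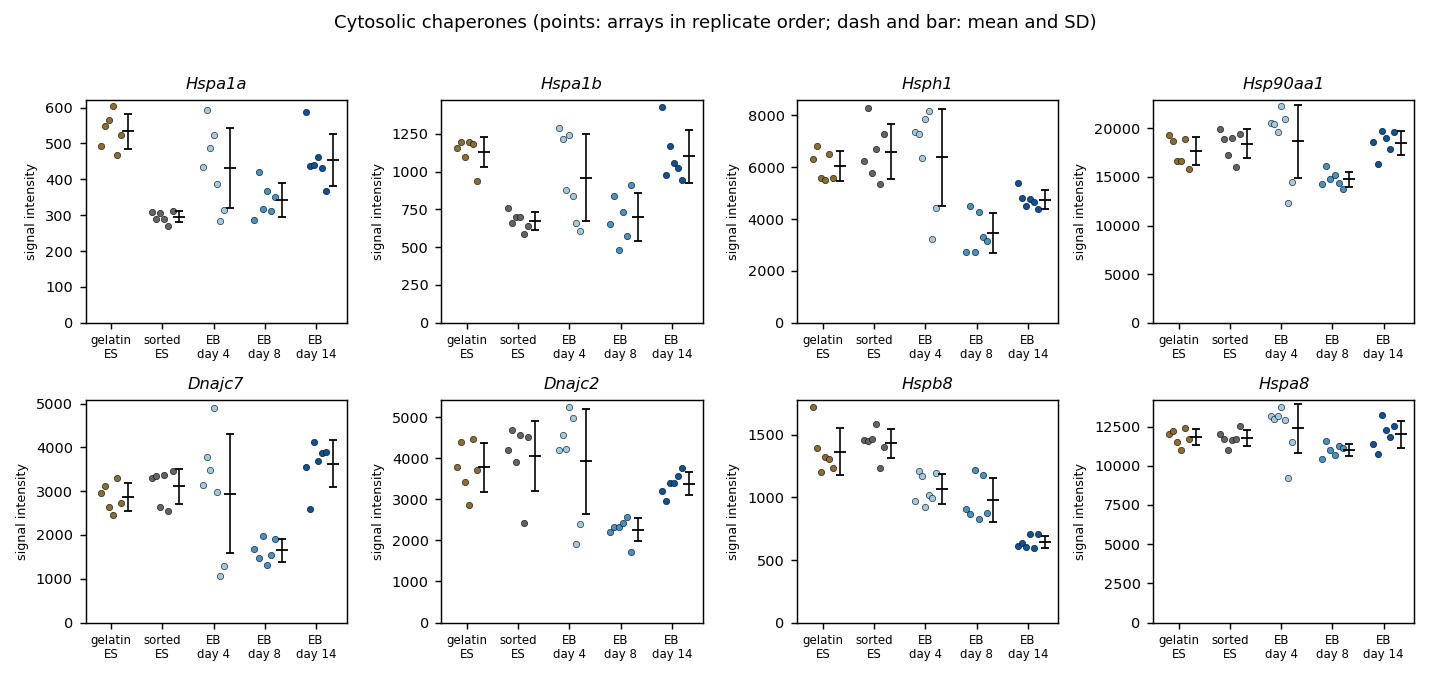
Signal intensity of 8 cytosolic members on each array, in gelatin ES cells, sorted ES cells and EBs at days 4, 8 and 14; dashes and bars are means and SDs, and each axis starts at 0. Hsph1, Dnajc7 and Dnajc2 are lowest at day 8 by group mean, Hspb8 is lowest at day 14, and Hspa8 has group means between 11007 and 12389.

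Hspb8 (HSP22), a small heat shock protein that works with Bag3 in selective autophagy, was lowest at day 14. Its signal was 593 to 711 with a median of 623 at day 14, 828 to 1222 with a median of 891 at day 8 and 925 to 1213 with a median of 1018 at day 4, against 1206 to 1722 with a median of 1316 in gelatin ES cells and 1233 to 1591 with a median of 1456 in sorted ES cells. All day 14 arrays were below all others, while day 8 and day 4 overlapped and did not differ by the test (-0.14, adjusted p = 0.311). The day 14 differences were -1.08 against gelatin ES cells (SE 0.10, adjusted p = 6.51e-10) and -1.16 against sorted ES cells (adjusted p = 1.95e-10), and a dimmer second probe set gave -0.96 and -1.10. Bag3 itself averaged 1064 ± 202 at day 14 and 2092 ± 305 in gelatin ES cells, lower by the test (-0.98, adjusted p = 1.89e-06), but was not called against sorted ES cells at 996 ± 86.4. Hspb2, a small heat shock protein of muscle, was 771 to 913 at day 14 and 951 to 1139 in gelatin ES cells (-0.37, adjusted p = 0.000927), but a dimmer probe set of Hspb2 gave -0.11 (adjusted p = 0.344).

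Hspa2 and Dnajb2 rose at day 14 from a dim signal, at the 21.0 and 18.3 percentile of probe sets. Hspa2, an Hsp70 best known from the testis, had 228 to 390 with a median of 353 at day 14, against 135 to 174 with a median of 144 in gelatin ES cells and 122 to 199 with a median of 163 in sorted ES cells, which did not overlap. Its differences were 1.15 against gelatin ES cells (adjusted p = 4.8e-09) and 1.04 against sorted ES cells (adjusted p = 2.99e-08). Dnajb2, a J-protein known from neurons, had 177 to 339 at day 14, 121 to 186 in gelatin ES cells and 115 to 131 in sorted ES cells, with differences of 0.85 and 1.11 (adjusted p = 2.88e-06 and 3.49e-08). Hspa4l, an Hsp110 relative of Hsph1, averaged 532 ± 55.8 at day 14, against 448 ± 44.6 in gelatin ES cells and 335 ± 22.2 in sorted ES cells, 0.66 above the sorted level (adjusted p = 7.76e-08).

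Dnajc21, a J-protein of ribosome maturation, had the largest difference of any member between the ES groups. It had 318 to 513 with a median of 417 in gelatin ES cells and 506 to 1608 with a median of 1252 in sorted ES cells, where replicate 5 alone reached the gelatin range. The difference was -1.47 (SE 0.21, adjusted p = 2.03e-06), and the EBs were above gelatin ES cells by 1.07, 1.04 and 0.83 at days 4, 8 and 14, with no overlap. The 3 gelatin arrays with a Gapdh ratio over 6 had the lowest values, 321, 333 and 318, where the other 3 had 502, 500 and 513. Without them the day 14 difference was 0.51 and no longer called, while those at day 4 and day 8 were kept.

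Hspa8 (Hsc70), the constitutive Hsp70 and among the brightest probe sets, averaged 11818 ± 519 in gelatin ES cells, 11782 ± 492 in sorted ES cells and 12389 ± 1566, 11007 ± 409 and 12008 ± 879 in EBs at days 4, 8 and 14, and did not pass the F test (adjusted p = 0.241). Dnaja1, an Hsp70 partner, was higher at day 14 than in sorted ES cells (0.56, adjusted p = 0.0488), a call lost on leaving out any of 19 arrays. Hspa4 (Apg2), another Hsp110 protein, was lower at day 14 than in gelatin ES cells (-0.54, adjusted p = 0.00206) on its brightest probe set, but its other 4 gave -0.70, -0.24, 0.46 and 0.57, so the gene's direction was not settled. Hspb1 (HSP27) lay at the 9.2 percentile, with group means of 90.2 to 108. It was called lower at day 8 than in gelatin ES cells (-0.25, adjusted p = 0.00383), and a floor at the 25th percentile removed the difference.

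Of 23 other cytosolic folding genes, 4 were higher and 12 lower at day 14 than in gelatin ES cells, with a median of -0.19. Of all probe sets 21.8% were higher and 23.2% lower there. Against sorted ES cells 1 was higher and 7 lower (median -0.06), where 24.8% and 24.0% of all probe sets were. Cryab and Pfdn2, like Bag3 above, were named because their group means spanned most in the list, so their differences are not typical of it. Cryab, a small heat shock protein, had 506 to 1107 in gelatin ES cells and 315 to 375 in sorted ES cells, without overlap, a difference of 1.34 (adjusted p = 3.33e-09). Its means in the EBs were 346, 321 and 343 at days 4, 8 and 14. Pfdn2, a subunit of prefoldin, which delivers clients to CCT, averaged 9931 ± 621 at day 8, against 4053 ± 686 in gelatin ES cells and 6442 ± 769 in sorted ES cells (1.31 and 0.63, adjusted p = 2.13e-06 and 0.00893).

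CCT subunits assemble into a ring, and few of their differences passed the test. Of 9 members, Cct2, Cct3, Cct5, Cct6a, Cct6b, Cct8 and Tcp1 did not pass the F test, and no subunit was called at day 14 against day 8. Cct7 averaged 11608 ± 481 at day 8 and 11880 ± 404 at day 14, against 13501 ± 816 in gelatin ES cells and 13032 ± 844 in sorted ES cells. It was lower than in gelatin ES cells at both days (-0.22 and -0.18, adjusted p = 0.000734 and 0.00305) and than sorted ES cells at day 8 (-0.17, adjusted p = 0.00939).

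Cct4 was low in gelatin ES cells, with 10853, 10615, 7870, 7859, 11032 and 7775 in replicates 1 to 6, against 8842 to 13759 with a median of 13301 in sorted ES cells. The difference was -0.42 (SE 0.10, adjusted p = 0.0015). The Gapdh ratios of the same gelatin arrays were 4.04, 3.94, 6.67, 6.31, 3.48 and 6.85, so the 3 lowest arrays were the 3 with the highest ratios. Without these 3 the difference was -0.19, and neither this call nor those of the EBs against gelatin ES cells remained.

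Among the others, Cct8 spread most, with 3191 to 11602 at day 4 and 4621 to 9406 in gelatin ES cells, and its largest difference (0.56 for day 14 against sorted ES cells, adjusted p = 0.0802) was not called. Cct2 had group means of 3615 to 4199. Tcp1 was higher at day 4 than in sorted ES cells (0.31, adjusted p = 0.0395), and Cct6a lower at day 8 than in gelatin ES cells (-0.33, adjusted p = 0.0399), calls lost on leaving out any of 6 and of 8 arrays. Other probe sets disagreed with the chosen ones for Cct3 and Cct5. For Cct3, the chosen set gave 8375 ± 1203 at day 14 and 8525 ± 1217 in gelatin ES cells, while the other 2 gave differences of -0.67 and 1.47 between these groups (adjusted p = 1.24e-07 and 0.000652). For Cct5, the day 8 minus gelatin difference was not called on the chosen set and was -0.89 on the other (adjusted p = 0.00011).

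Hsf2, a heat shock factor active in development, was dim, at the 13.2 percentile. It had 90.6 to 106 with a median of 95.0 in gelatin ES cells and 116 to 143 with a median of 137 in sorted ES cells, without overlap (-0.47, adjusted p = 1.26e-05). EBs were above gelatin ES cells by 0.50, 0.41 and 0.60 at days 4, 8 and 14, and with a floor at the 25th percentile of all values these differences vanished. The 5 unclassed members Dnajb13, Dnajc4, Dnajc5, Dnajc13 and Hspb11 all passed the F test, with a median span of 0.28.

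**Figure D5:**
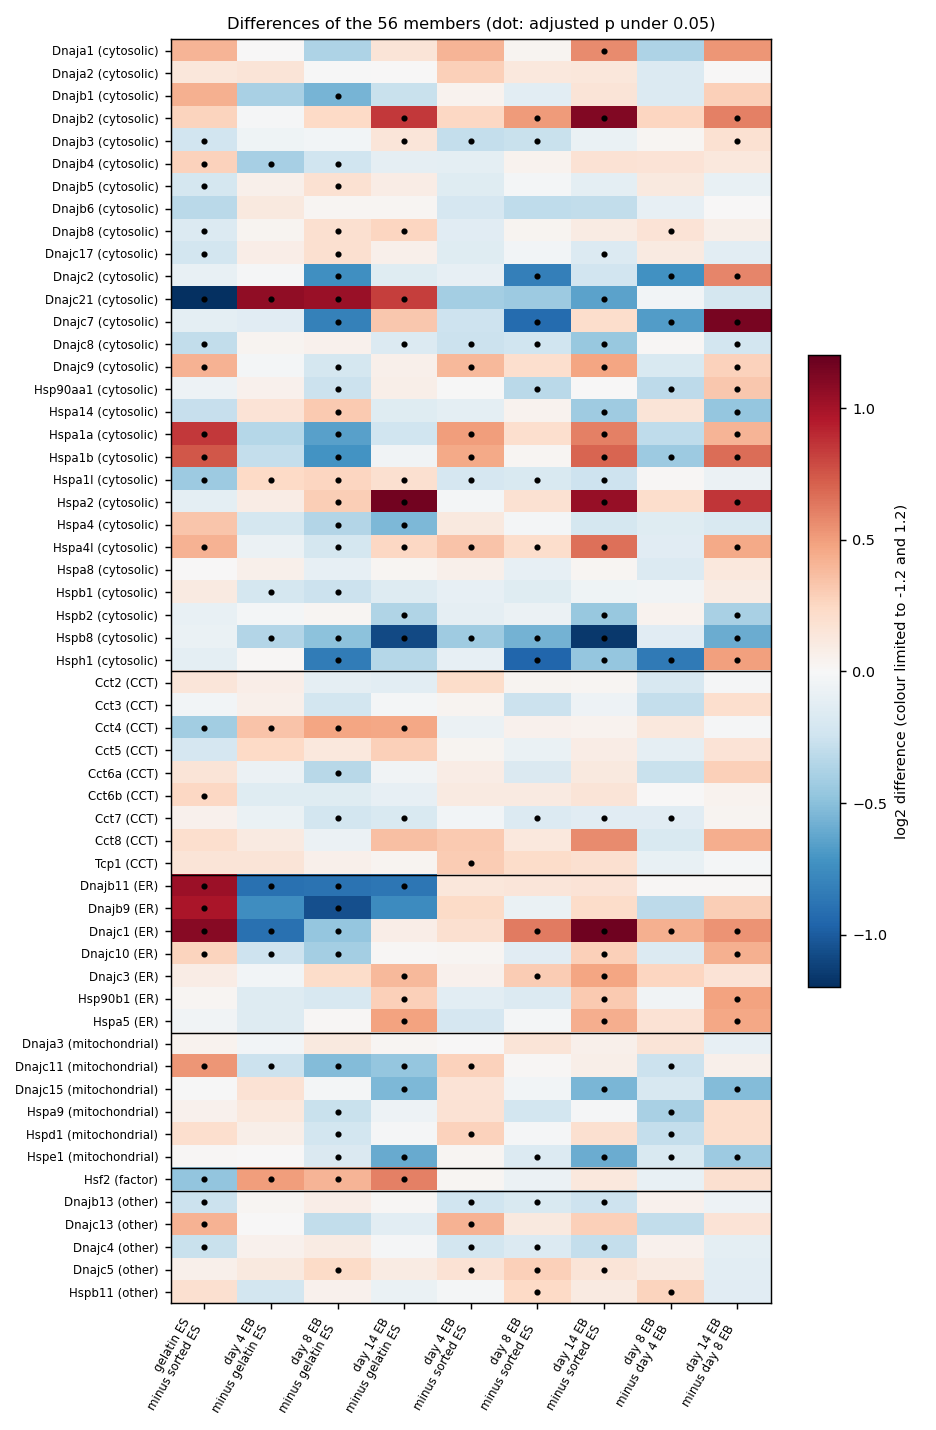
Log2 differences of all 56 members (rows, by class) in the 9 comparisons (columns); red is higher and blue lower in the group named first, colours stop at 1.2 in either direction, and a dot marks an adjusted p under 0.05. The ER rows are red at day 14 against sorted ES cells, the CCT rows are pale apart from Cct4 and Cct8, and the row of Hspe1 is blue in every column that involves day 14.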

How the data were processed

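Total RNA from 31 samples was amplified in 2 rounds, biotin labelled and hybridized to MgU74Av2 arrays. The deposited values are linear signal intensities, normalized and modelled by the authors with dChip; its version and model are not given in the sources used here. The methods state 6 biological samples a time, though day 4 holds 7 arrays, and 12 days where the labels give 14; the labels were followed, and p-values measure the spread between these arrays. The number of arrays limits the precision.

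Signals below the 5th percentile of all values, 59.6, were set to it, and log2 values of 12422 probe sets (12488 less 66 controls) were fitted by limma 3.58.1 in R 4.3.3 with 5 group means and a variance trend, with Benjamini-Hochberg adjustment over all of them. Of these 12422, 10833 carried 1 gene symbol in the platform annotation, 396 several and 1193 none. In simulated data for day 14 against sorted ES cells the fit of 12422 probe sets found 50 of 67 changes of 0.5 log2, 66 of 67 of 1 and 66 of 66 of 2, with 11 false calls. Simulated noise was independent between arrays and probe sets, and no other probe set differed between groups. These rates therefore need not hold for the real arrays. Members and lists were chosen with earlier results of these data known. Named were a fixed list of 28 genes and other members past the F test with group means at least 1 log2 apart. Of each partner list, the 3 genes past the F test with the widest span of group means were named. They were picked on these same values and are not typical of their lists. Dnajc2, Dnajc10, Dnajc11, Dnajc15, Hspa4l and Hspb2 were named after their values were seen. No arrays were identical. Replicate numbers are not stated to pair arrays across groups, and the main fit did not pair them. Alternatives were the floor, scaling, filter, probe set choice, array weights, fit and arrays left out. Figures were drawn with matplotlib 3.10.9.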

Additional observations from a re-analysis of the deposited data

Results flagged for a closer look

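Of 165 groups of 6 or 7 arrays looked at, for 33 members in 5 groups, 14 held 1 array far from the rest by Dixon's criterion; chance flags about 1 in 20 groups. Sorted ES replicate 5 was the lowest array for 5 members, with Cct4 at 8842, Cct5 at 6813, Cct6a at 5202, Dnajc21 at 506 and Hspd1 at 10068, where the next lowest sorted arrays had 12054, 10317, 7597, 1104 and 12180. Day 14 replicate 2 was the lowest for 4 members, with Cct8 at 7076, Dnajb1 at 951, Dnajc7 at 2601 and Hspa5 at 8322, against 9059, 1230, 3541 and 10337 in the next lowest arrays. Day 4 replicate 6 was the lowest for Cct4 at 9512, Dnajb11 at 642 and Dnajb9 at 144, against 11446, 1004 and 429 in the next. Day 8 replicate 2 was the highest for Dnajb1 at 1544, against 1010 in the next. Gelatin ES replicate 6 was the lowest for Hspa1b at 941, against 1099 in the next.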

How the results depend on the processing

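Medians are log2 differences over the members of a class, and counts are of members called. With quantile normalization the CCT median at day 8 minus gelatin ES was 0.060, the ER median at gelatin minus sorted ES 0.12, the cytosolic median 0.063 at day 14 minus day 8 and -0.040 at day 8 minus gelatin ES, and the mitochondrial median at day 14 minus day 8 -0.12, with 7 members higher at day 4 than in gelatin ES cells and 12 lower at day 14 than at day 8. With each array centred on its median, those counts were 7 and 12 as well, the cytosolic median was 0.034 at day 14 minus day 8 and -0.13 at day 14 minus sorted ES, and the mitochondrial median was -0.11 at day 14 minus day 8, -0.082 at day 14 minus sorted ES, 0.11 at day 4 minus gelatin ES and -0.15 at day 8 minus gelatin ES. With dim probe sets left out, the cytosolic median was 0.066 at day 14 minus day 8 and -0.14 at day 14 minus sorted ES, and the mitochondrial median 0.057 at day 14 minus day 8 and -0.064 at day 14 minus gelatin ES, over fewer members. With a floor at the 25th percentile, the cytosolic median at day 8 minus gelatin ES was -0.068 and the mitochondrial median at day 14 minus gelatin ES -0.13. With array weights, the ER and cytosolic medians at day 8 minus sorted ES were -0.26 and -0.12, and the mitochondrial median at day 4 minus gelatin ES 0.12; 25 members were higher and 10 lower at day 14 than at day 8, 7 higher at day 4 than in gelatin ES cells, 11 higher and 24 lower at day 8 than at day 4, and against sorted ES cells 12 were lower at day 4 and 21 at day 8. With only the groups compared in the fit, 1 member was higher and 3 lower at day 8 than at day 4. The causes were not tested.

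The following 3 alternatives were chosen after seeing the data, and each rests on fewer arrays. Without sorted replicate 5, day 4 replicate 6 and day 14 replicate 2, 5 members were higher and 19 lower at day 8 than at day 4, and against sorted ES cells 3 were higher at day 8 and 10 lower at day 4. Without day 4 replicates 6 and 7, the cytosolic median at day 4 minus sorted ES was 0.12 and the mitochondrial median at day 4 minus gelatin ES 0.12; 9 members were higher at day 4 than in gelatin ES cells, 16 higher and 10 lower against sorted ES cells, and 7 higher and 22 lower at day 8 than at day 4. Without the gelatin arrays of Gapdh ratio over 6, the cytosolic median was -0.074 at day 14 and -0.24 at day 8 minus gelatin ES and 0.041 at gelatin minus sorted ES, and the mitochondrial median at day 8 minus gelatin ES -0.25; 4 members were higher at day 14 and 5 at day 8 than in gelatin ES cells, 4 lower at day 4 than in gelatin ES cells, and 7 lower in gelatin than in sorted ES cells.

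Leaving out 1 array at a time, the ER median at day 14 minus gelatin ES ran from 0.034 to 0.18, members higher at day 4 than in sorted ES cells from 6 to 14, higher at day 8 than at day 4 from 2 to 6, higher at day 8 than in sorted ES cells from 3 to 7, and lower at day 8 than at day 4 from 6 to 17. With probe sets averaged per gene, 5 differences changed sign: Cct5 at day 8 minus gelatin ES (-0.38), Dnajb13 at day 14 and day 8 minus gelatin ES (-0.20 and -0.28), and Dnajb3 at day 14 minus gelatin ES and day 8 minus day 4 (-0.29 and -0.18); without day 4 replicates 6 and 7, Hsp90aa1 at day 4 minus sorted ES was 0.17. Over 60 pairs of arrays with the same replicate number, deviations from group means correlated between -0.35 and 0.49, with 23 over 0.1. Pairs with different numbers were not compared, so these values cannot show whether the numbers pair the arrays. With a replicate block, 5 members were higher at day 8 than at day 4. The other class medians and counts moved by less than the spread between arrays or by less than 1.5 times. Signals near the floor, as of Hsf2 and Hspb1, limit what can be seen of dim members.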
